A study of Homo sapiens with 3 samples.

Results

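The IL-6 family was examined in the pancreatic cancer cell line PANC-1 on 3 Agilent 1-colour arrays. There was 1 array each for control cells, cells given cantharidin and cells given okadaic acid. Both agents block protein phosphatase 2A (PP2A), which takes phosphate off many signalling proteins. The sample labels give 20 µM for each agent, though the treatment text is less clear for okadaic acid, with 24 h of exposure and no agent for the control. All cells were of 1 line, and how the control was handled is not given in the sources used here. With 1 array per group there was no replicate, so no difference below has a test or a p-value.

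The set held 10 genes of the 19699 genes that could be named on the arrays. They were chosen by name: the cytokines IL6, IL11, LIF and CLCF1, the receptor chains IL6R, IL6ST, LIFR and OSMR, the feedback inhibitor SOCS3 and the transcription factor STAT3. All probes whose RefSeq accession belonged to these genes were taken, which gave 18 probes, 7 of them for IL6ST. For counts, a gene was represented by its brightest probe.

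Most cytokines of this family share gp130, the product of IL6ST, which passes the signal into the cell, and several first bind a private receptor chain. LIFR and OSMR are further signalling chains that pair with gp130. Janus kinases bound to these chains phosphorylate STAT3, which enters the nucleus and switches on its targets, SOCS3 among them. SOCS3 then binds the receptor complex and shuts the signal down. Pancreatic cancers are known for IL-6 and LIF signalling between tumour and stroma. Messenger RNA levels do not report phosphorylation, so the activity of the pathway was not measured here.

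The 250 bases upstream of the RefSeq start are shown for IL6 and IL11, because both are ligands that use gp130 and their signals behaved differently under the agents. The sequences are from RefSeq (GRCh38.p14), which held windows for 8 of the 10 genes. Capitals mark matches to 5 motifs searched on both strands: STAT (TTCNNNGAA), the NF-κB consensus, AP-1 (TGANTCA), C/EBP (TTGCNNAA) and CRE (TGACGTCA). The IL6 window lies at chr7:22726950-22727199 on the plus strand and the IL11 window at chr19:55370464-55370713 on the minus strand.

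IL6: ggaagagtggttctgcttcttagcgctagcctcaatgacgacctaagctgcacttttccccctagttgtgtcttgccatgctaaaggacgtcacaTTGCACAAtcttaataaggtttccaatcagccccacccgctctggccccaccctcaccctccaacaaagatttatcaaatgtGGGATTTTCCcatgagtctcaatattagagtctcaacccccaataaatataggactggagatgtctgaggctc

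IL11: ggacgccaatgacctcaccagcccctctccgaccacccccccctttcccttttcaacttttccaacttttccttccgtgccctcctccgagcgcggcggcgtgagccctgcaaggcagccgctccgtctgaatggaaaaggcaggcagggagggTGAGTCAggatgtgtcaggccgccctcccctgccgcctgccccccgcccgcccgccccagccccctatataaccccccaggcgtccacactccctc

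The IL6 window held a C/EBP match, TTGCACAA, from 155 to 148 bases before the start and an NF-κB match, GGGATTTTCC, from 73 to 64 bases before it. The IL11 window held an AP-1 match, TGAGTCA, from 96 to 90 bases before the start. Among 35114 upstream windows of this length, 9.05% held the C/EBP motif, 9.96% the NF-κB consensus and 6.57% the AP-1 motif. A match is a description of these letters and was not tested as a binding site. Whether the matches bear on the different signals of IL6 and IL11 was not tested. Matches also lay in windows of LIFR (STAT and C/EBP), OSMR (C/EBP) and IL6ST (NF-κB), and 6.57% of all windows held the STAT motif. None of the motifs was found in the windows of SOCS3, STAT3 or IL6R. Bases outside the windows were not searched, so sites elsewhere in these genes would be missed.

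Signals are processed intensities. Differences are on the log2 scale, once the 75th percentile of each array had been set equal. Errors of a difference are the scanner's own error estimates of the spots and do not include variation between cultures. For a probe printed in repeated spots, these estimates were combined as if the spots were independent. Its error is therefore smaller than for probes without repeats, although its spots on an array share the same RNA sample. A probe counted as measured where the scanner placed it well above background. The dimmest signal of this kind lay between 21.9 intensity units, under cantharidin, and 58.0, under okadaic acid. The median difference over all genes compared was -0.16 for cantharidin and 0.01 for okadaic acid, and other scalings and background corrections moved it between -0.30 and -0.09 and between -0.11 and 0.26. The epithelial keratin genes KRT7, KRT8, KRT18 and KRT19 were well above background on each array, as were all 4 leukocyte markers, CD14 and PTPRC among them. The summed signal of the leukocyte markers was 3313 in control, 2545 under cantharidin and 12058 under okadaic acid, where CD14 was 3.65-fold higher, and its part in the results below was not tested. Of 3 endothelial markers, CDH5 (411, 347 and 460 in control, cantharidin and okadaic acid) and VWF (1814, 958 and 1090) were well above background throughout. PECAM1 was not on its brightest probe, and another of its probes was in control alone (45.0).

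On their brightest probes, most members stayed within 1.5-fold of control. Under cantharidin, 2 of the 10 genes compared were at least 1.5-fold higher than control, and 0 were lower, when 27.5% of all genes were higher and 34.1% lower. Under okadaic acid, 4 of 9 genes compared were at least 1.5-fold higher and 0 lower, against 28.1% and 28.8% of all genes. The median log2 difference of the members was 0.20 under cantharidin and 0.27 under okadaic acid. IL11 and CLCF1 were the genes past 1.5-fold under both agents, and LIF and SOCS3 joined them under okadaic acid. The agents were compared with the same control array, so their values are given side by side.

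**Figure D1:**
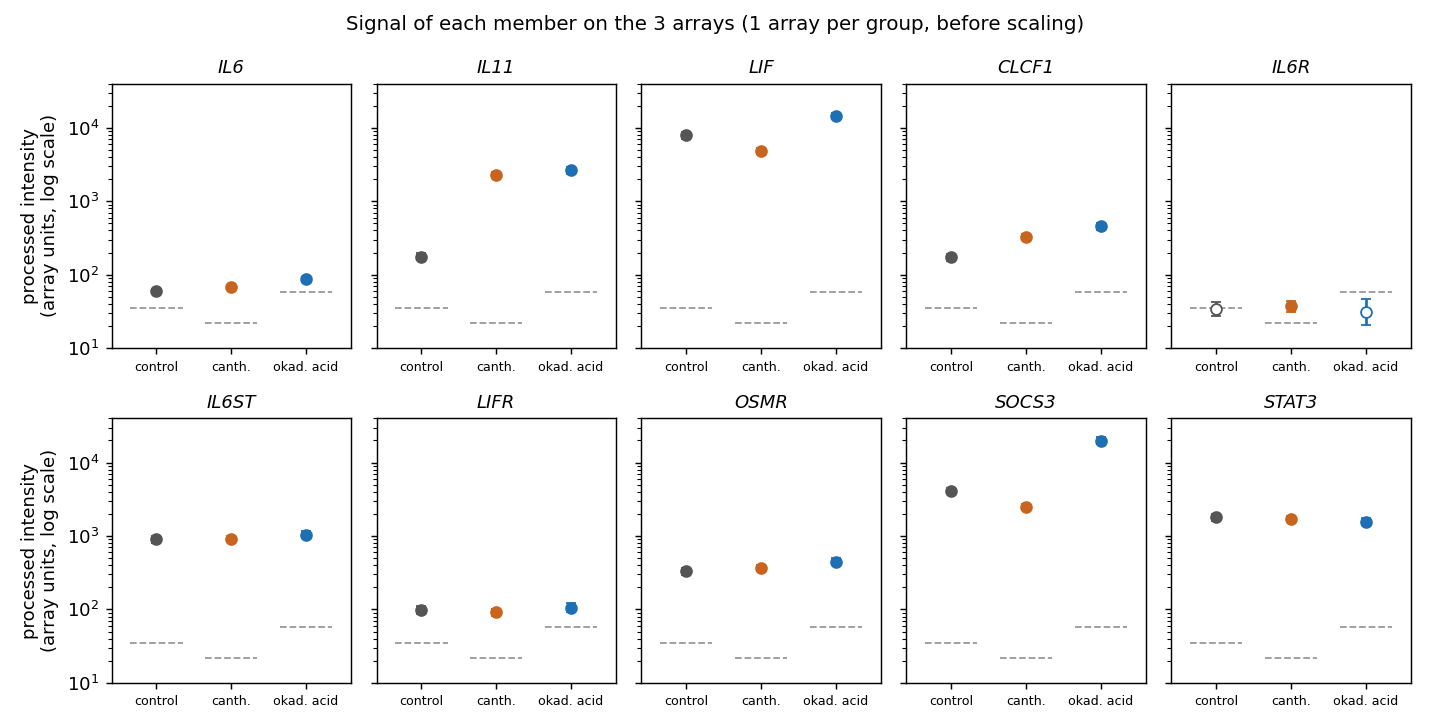
Processed intensity (log scale) of the brightest probe of each member by array (control, then cantharidin, then okadaic acid), before scaling. Bars are scanner errors, open circles are signals not well above background, and dashed lines mark the lowest signal well above background on each array. IL11 moved from 177 to 2262 and 2639, while IL6 and IL6R lay near the dashed lines.

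IL11 (NM_000641), a cytokine that signals through gp130 and is known for roles in bone, platelet and stromal biology, showed the largest change among the brightest probes of the members. Its intensity was 177 in control cells, 2262 under cantharidin and 2639 under okadaic acid. Both treated arrays were thus far above control and close to each other. The log2 difference was 3.82 ± 0.21 (scanner error) under cantharidin, a 14.1-fold rise. It was 3.65 ± 0.21 under okadaic acid, a 12.5-fold rise. Okadaic acid set against cantharidin gave -0.17 ± 0.20, within the scanner error. In the alternatives tried, the rise never fell below 3.31 under cantharidin and 3.13 under okadaic acid on the log2 scale.

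CLCF1 (NM_013246), a ligand that acts through CNTFR, LIFR and gp130, rose less. Its intensity was 172 in control, 326 under cantharidin and 457 under okadaic acid. Control was again the lowest of the 3 arrays. The log2 difference was 1.06 ± 0.21 under cantharidin (2.08-fold) and 1.15 ± 0.22 under okadaic acid (2.22-fold). Between the agents it was 0.09 ± 0.21.

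LIF (NM_002309), which binds LIFR and gp130 and maintains stem cell states in culture, moved apart under the agents. Its brightest probe gave 7910 in control, 4814 under cantharidin and 14391 under okadaic acid. Cantharidin was the lowest and okadaic acid the highest array. The log2 difference was -0.58 ± 0.20 under cantharidin, 1.49-fold lower and just inside the threshold. It was 0.61 ± 0.20 under okadaic acid, 1.52-fold higher and just outside it. Of 8 alternatives that act on probe values, 7 kept the okadaic acid value past 1.5-fold, and scaling to the median gave 0.49. Setting dim signals to the array floor is among the 7 but could not change this bright probe. The median over the LIF probes gave 0.16. Okadaic acid gave 2.28-fold more signal than cantharidin, a log2 difference of 1.19 ± 0.20. The other LIF probe was dim, at 67.9, 37.2 and 66.0, with differences of -0.73 ± 0.33 under cantharidin (1.66-fold lower) and -0.30 ± 0.37 under okadaic acid, so the rise there rests on 1 probe. The cantharidin value of LIF passed 1.5-fold in 1 of the same 8 alternatives, without scaling, and with the median over its probes, at -0.65.

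IL6 (NM_000600), the founding cytokine of the family and a driver of the acute phase response, was close to the detection limit. Its probe was printed in 10 spots per array. Without outlier spots, the 9 control spots ran from 48.6 to 70.6 with a median of 59.0. The 7 spots under cantharidin ran from 64.0 to 75.1 with a median of 67.0. The 9 spots under okadaic acid ran from 80.2 to 96.3 with a median of 86.7. Before scaling, the okadaic acid spots lay above those of control, and the cantharidin spots overlapped with control. Spots of 1 array share 1 RNA sample and are not replicates.

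The log2 difference of IL6 after scaling was 0.32 ± 0.11 under cantharidin (1.24-fold) and 0.27 ± 0.12 under okadaic acid (1.21-fold), both within 1.5-fold. Keeping the outlier spots, 3 of them on the cantharidin array and 1 on each of the others, lowered the cantharidin value to 0.02. Relative to the dimmest measured signal of its array, IL6 stood at 1.71 times in control, 3.10 times under cantharidin and 1.49 times under okadaic acid. The scanner errors of IL6 are small because its spots were repeated, and they do not make it better replicated than other genes. The log2 standard deviation of its kept spots was 0.19 in control, 0.09 under cantharidin and 0.08 under okadaic acid.

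**Figure D2:**
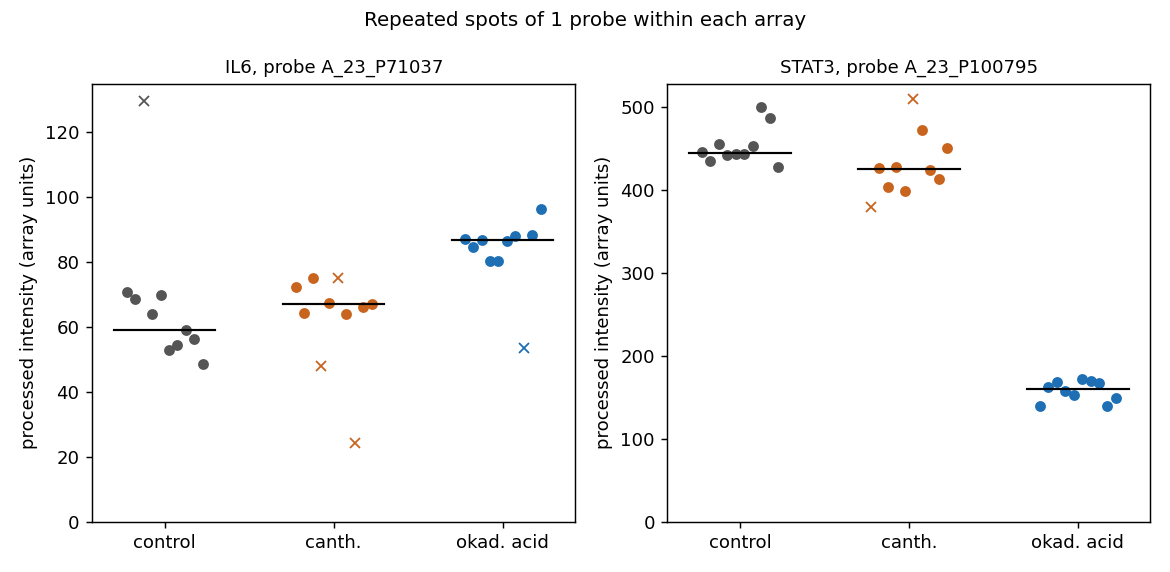
Processed intensity of each of the 10 repeated spots of the IL6 probe and of the STAT3 probe A_23_P100795 on the 3 arrays, with crosses for outlier spots left out and lines for medians of the kept spots. IL6 spots stayed below 100 apart from 1 outlier at 130, and the STAT3 spots under okadaic acid (139 to 172) lay below all of control (428 to 501).

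Among the receptor chains, the brightest probes of IL6ST, LIFR and OSMR stayed within 1.5-fold under both agents. OSMR (NM_003999), the oncostatin M receptor chain, gave intensities of 331 in control, 367 under cantharidin and 447 under okadaic acid. Its log2 differences were 0.29 ± 0.21 and 0.18 ± 0.21. LIFR (NM_002310) gave 99.4, 91.7 and 106, with differences of 0.02 ± 0.25 and -0.16 ± 0.29. The OSMR difference under cantharidin was slightly larger than its scanner error, and the other values of this pair of genes were within theirs. IL6R (NM_000565), the private chain for IL-6, was not well above background in control (34.3) or under okadaic acid (30.9), and gave 37.3 under cantharidin. The difference from control there was 0.26 ± 0.41, within the scanner error.

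**Figure D3:**
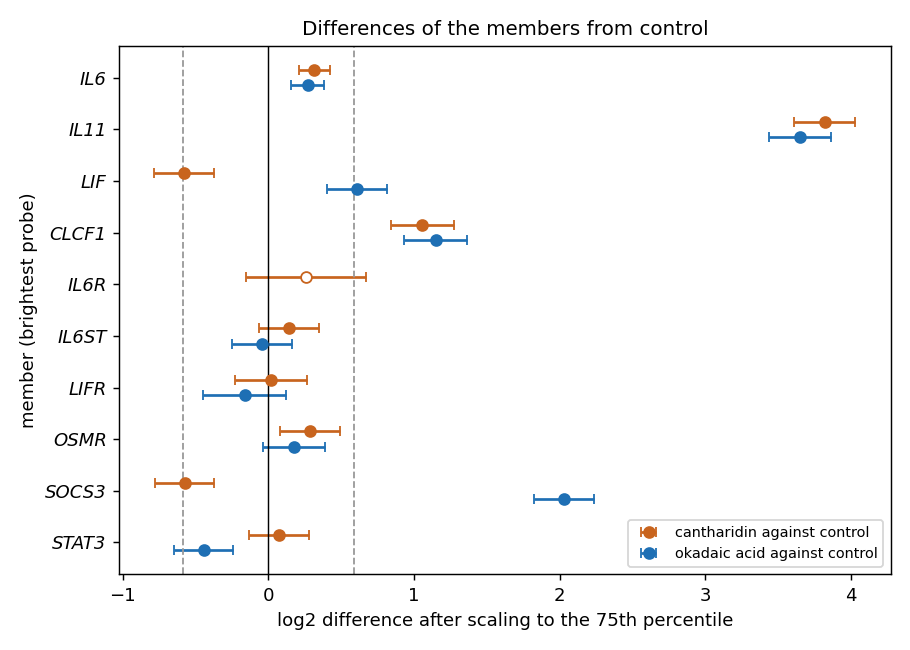
Log2 difference from control of the brightest probe of each member after scaling, for cantharidin (orange) and okadaic acid (blue), with scanner errors as bars and dashed lines at 1.5-fold. The open circle is a value with 1 side not well above background. IL11 and CLCF1 lay past the line under both agents, and under okadaic acid SOCS3 at 2.03 and LIF at 0.61.

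The gp130 gene IL6ST depended on the probe. The brightest of its 7 probes, A_32_P45168, gave 901 in control, 905 under cantharidin and 1045 under okadaic acid, with log2 differences of 0.14 ± 0.20 and -0.04 ± 0.20. Probe A_23_P502470, assigned to the same accession (NM_002184), gave 38.3, 314 and 463. This was a 9.03-fold rise with cantharidin and a 10.1-fold rise with okadaic acid. On that probe control was low and both treated arrays were high, whereas the brightest probe was level.

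Probe A_33_P3233843, assigned to the transcript NM_001190981, was not well above background in control (39.4). It reached 729 under cantharidin and 241 under okadaic acid. The rise was at least 20.4-fold under cantharidin and at least 5.14-fold under okadaic acid. Here cantharidin exceeded okadaic acid 3.97-fold, with a log2 difference of -1.99 ± 0.22 for okadaic acid against cantharidin. Probe A_33_P3233841 gave 71.8, 128 and 204, which was 1.96-fold and 2.38-fold higher.

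By their measured signals, 5 of the 7 IL6ST probes were counted as higher under cantharidin and 1 as lower, against 26.4% and 33.0% of all probes. Under okadaic acid 3 of the 5 probes compared were higher and 0 lower, against 26.5% and 27.7% of all probes. The lower probe, A_32_P223777, gave 73.6, 39.4 and 90.3. Of the higher probes under cantharidin, A_33_P3233834 and A_33_P3287338 were well above background on that array alone, with bounds of at least 1.31-fold, short of the threshold, and at least 1.60-fold. All of these probes are assigned to IL6ST transcripts, and where in the transcript each one binds was not analysed here. The rises of A_23_P502470 and A_33_P3233843 stayed past 1.5-fold in all 8 settings that change a probe's value, with lowest log2 values, under the normexp correction, of 1.78 and 2.82 for cantharidin and 1.88 and 1.18 for okadaic acid.

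**Figure D4:**
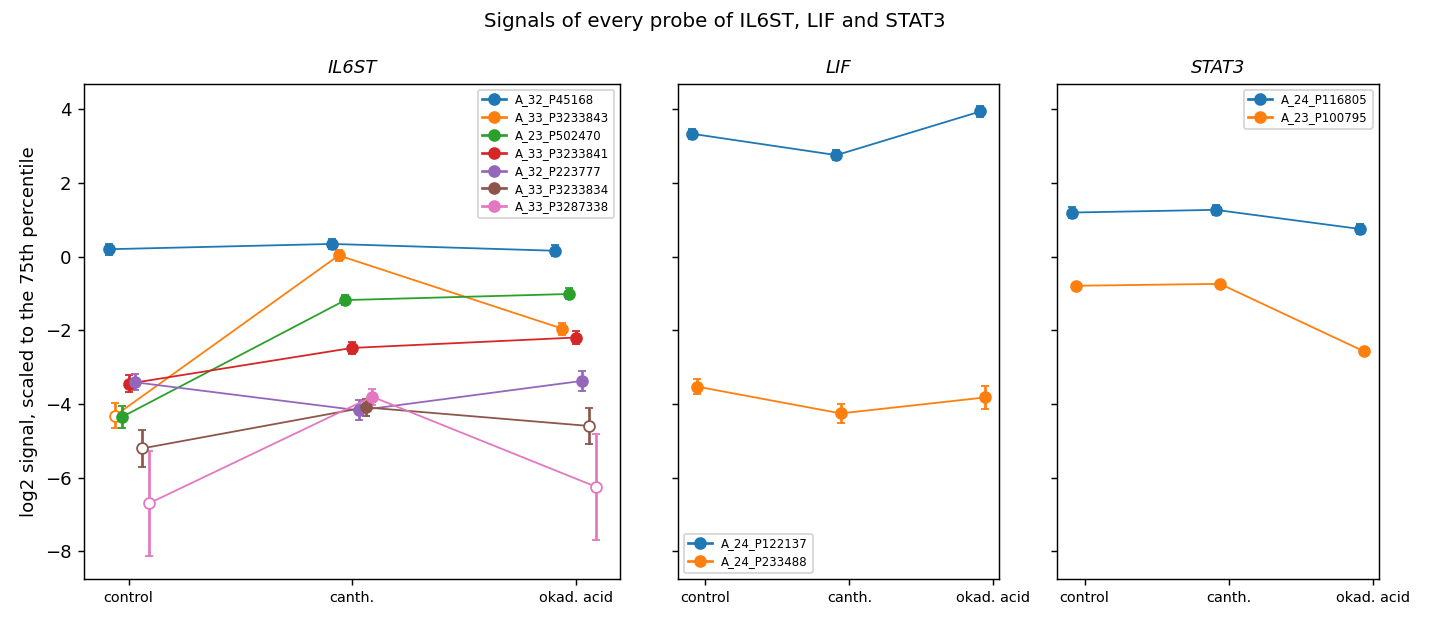
Scaled log2 signal of every probe of IL6ST, LIF and STAT3 on the 3 arrays, with scanner errors as bars and open circles for signals not well above background. The brightest IL6ST probe was level while A_23_P502470 and A_33_P3233843 rose under both agents, and STAT3 probe A_23_P100795 fell under okadaic acid by 1.78.

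STAT3 also had probes that differed. The brightest probe, A_24_P116805, gave 1798 in control, 1719 under cantharidin and 1576 under okadaic acid. Its log2 differences were 0.07 ± 0.20 and -0.44 ± 0.20, both within 1.5-fold. Probe A_23_P100795, assigned to the same accession (NM_213662) and printed in 10 spots, gave a median of 445 over 10 control spots and 426 over 8 spots under cantharidin. Under okadaic acid the median was 160 over 10 spots, and the highest of these spots, 172, was below the lowest control spot, 428. The log2 difference of this probe was 0.05 ± 0.07 under cantharidin and -1.78 ± 0.08 under okadaic acid, a 3.44-fold lower signal. In the settings that change a probe's value it ranged from -2.20 to -1.33 under okadaic acid. Both probes were level under cantharidin, and they differed in size under okadaic acid.

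SOCS3 (NM_003955), the feedback inhibitor that STAT3 induces, separated the agents most among the brightest probes. Its intensity was 4090 in control, 2494 under cantharidin and 19932 under okadaic acid. Okadaic acid gave the highest signal and cantharidin the lowest. The log2 difference was -0.58 ± 0.20 under cantharidin, 1.49-fold lower and inside the threshold. It was 2.03 ± 0.20 under okadaic acid, a 4.08-fold rise. Set against each other, okadaic acid gave 6.08-fold more SOCS3 signal than cantharidin, a log2 difference of 2.61 ± 0.20.

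In this direct comparison, LIF and SOCS3 were the 2 of 10 members at least 1.5-fold higher under okadaic acid, against 29.5% of all genes. IL6R was counted as lower, against 22.3% of all genes, but it was not well above background under okadaic acid and no fold is given. In either direction 51.8% of all genes passed 1.5-fold, and the median over all genes was 0.13. Of all 18 member probes, 3 were higher and 4 lower, against 28.0% and 22.5% of all probes.

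The other ligands and receptor chains of the family were counted next. Of 11 genes listed, 10 had a named probe, and IL11RA was not analysed here. Under cantharidin 4 were at least 1.5-fold higher and 4 lower of 10 compared, and under okadaic acid 4 higher and 2 lower of 9, when 61.6% and 56.9% of all genes passed 1.5-fold in either direction. The medians were 0.07 and -0.16. CNTF and IL31RA were higher under both agents and CTF1 lower under both, and OSM was counted as higher on the brighter of its disagreeing probes. Under cantharidin IL31 was also higher, with IL27 and EBI3 among the lower genes, and under okadaic acid CNTFR was higher and IL27RA lower. IL31 was not well above background in control (39.0), and IL27 was dim at 53.5 in control and 29.4 under cantharidin. IL31RA, the private receptor chain for IL-31, gave 61.6 in control, 639 with cantharidin and 284 with okadaic acid, which was 11.4-fold and 3.86-fold higher.

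CTF1 (cardiotrophin 1), a ligand of LIFR and gp130, was lower, with 2067, 288 and 483, which was 6.52-fold and 5.11-fold lower. OSM (oncostatin M) was 3.82-fold and 3.06-fold higher on its brighter probe, at 46.2, 160 and 169. Its other probe gave 91.7, 45.5 and 80.7, which was 1.83-fold and 1.36-fold lower, so no direction can be given for OSM. CNTF was not well above background in control and its rise was no less than 1.65-fold with cantharidin and 2.39-fold with okadaic acid.

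Among 16 JAK-STAT kinases, transcription factors, inhibitors and receptor-cutting proteases, 3 were higher and 4 lower under cantharidin, and 6 higher and 4 lower under okadaic acid, beside 61.6% and 56.9% of all genes past 1.5-fold in either direction. The medians were 0.17 and -0.08. JAK2, SOCS1 and ADAM17 were higher under both agents. The lower genes included STAT5B and PTPN6 under both, STAT5A under cantharidin and PTPN11 under okadaic acid. SOCS1, a further inhibitor of Janus kinases, gave 862, 2310 and 9628, which was 2.95-fold and 9.36-fold higher. Okadaic acid exceeded cantharidin for SOCS1 3.17-fold.

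STAT5B, a transcription factor downstream of other cytokine receptors, gave 8220, 2469 and 1152, which was 3.02-fold and 8.52-fold lower. PTPN6, the phosphatase SHP-1, was 6.45-fold and 1.88-fold lower. ADAM17, the protease that sheds the IL-6 receptor from the cell surface, was 3.29-fold and 1.57-fold higher. JAK2 was dim at 46.6, 68.2 and 92.3, and was 1.61-fold and 1.66-fold higher.

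Of 20 genes known to be induced by STAT3, 19 were compared under each agent. Under cantharidin 4 were higher and 8 lower with a median of -0.42, and under okadaic acid 4 were higher and 5 lower with a median of 0.10, again beside 61.6% and 56.9% of all genes past the threshold. CEBPB and HP were higher under both, with IL4R and CRP under cantharidin and FGG and ICAM1 under okadaic acid. BCL3, TNFRSF1A, SERPINA3, FGB and SAA1 were counted as lower under okadaic acid, although the bound for FGB falls short of 1.5-fold. CEBPB, a transcription factor of the acute phase response, gave 23562, 61381 and 58088, which was 2.87-fold and 2.07-fold higher. TNFRSF1A, a receptor for TNF, was 3.70-fold and 4.55-fold lower.

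The acute phase genes were mostly dim. From 112 in control, SAA1 was lower by at least 4.65-fold with cantharidin and by at least 2.30-fold with okadaic acid, and binding of transcripts of its close relative SAA2 was not tested. FGB was at least 2.65-fold and at least 1.31-fold lower, from 63.9. SERPINA3, a protease inhibitor, was 2.28-fold and 1.53-fold lower, and its other 2 probes were lower too. HP (haptoglobin) was dim at 51.6, 79.9 and 106, and was 1.70-fold and 1.72-fold higher.

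The last list held 12 factors known to act on IL6 transcription or on the stability of its messenger RNA. Of these, 7 were higher and 2 lower under cantharidin, and 9 higher and 1 lower under okadaic acid, with medians of 1.32 and 1.35. Of all genes, 27.5% were higher and 34.1% lower under cantharidin, and 28.1% and 28.8% under okadaic acid. The list was chosen with earlier results of these data known, so its counts are not a test. ELAVL1, an RNA-binding protein that stabilises many messages, was lower under both. IL6 itself stayed within 1.5-fold. The NF-κB subunit genes NFKB1 and REL rose, NFKB1 by 2.20-fold and 3.49-fold and REL by 4.42-fold and 4.33-fold. FOS, an AP-1 subunit, gave 3434, 8879 and 72510, which was 2.85-fold and 17.7-fold higher.

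ZC3H12A, the ribonuclease regnase-1 that degrades IL6 messenger RNA, gave 1950, 10661 and 24874, which was 6.02-fold and 10.7-fold higher. ARID5A, which stabilises it, gave 507, 4141 and 5815, with log2 differences of 3.17 and 3.27. The other ARID5A probe stayed within 1.5-fold, at 1.37-fold and 1.42-fold. ATF3, a stress-induced transcription factor, was 84.9-fold and 12.8-fold higher on its brightest probe, while its 4 probes ranged from -0.15 to 6.41 with cantharidin and from -0.47 to 3.67 with okadaic acid on the log2 scale. HNRNPD, an RNA-binding protein that acts on such messages, passed 1.5-fold in opposite directions, with cantharidin 1.53-fold lower and okadaic acid 1.63-fold higher than control. Its dimmer probe was 5.99-fold lower and 1.30-fold higher.

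**Figure D5:**
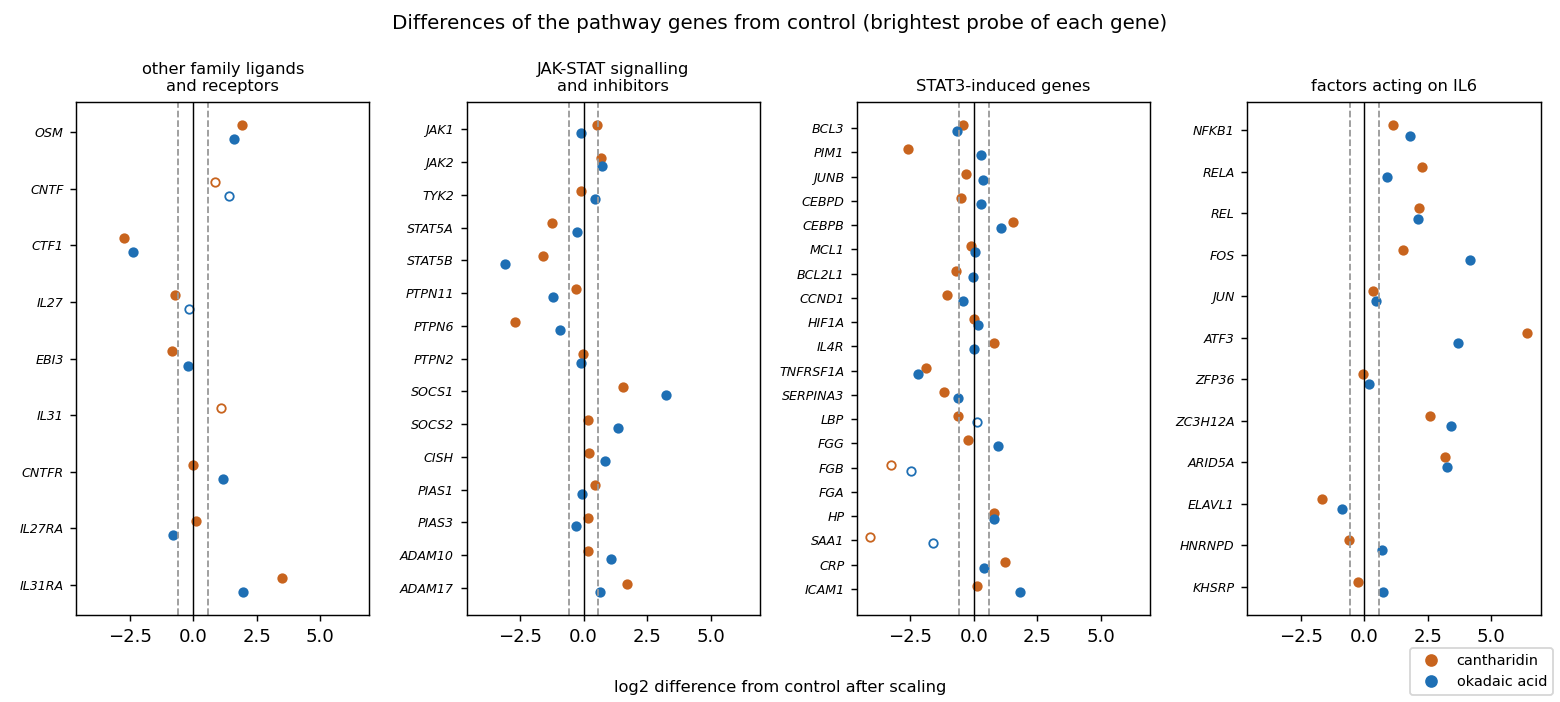
Log2 difference from control after scaling for genes of the 4 lists, with cantharidin in orange and okadaic acid in blue, dashed lines at 1.5-fold and open circles where 1 array was not well above background. Factors acting on IL6 lay mostly to the right, with ATF3 at 6.41 under cantharidin, and STAT3-induced genes lay on both sides.

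Over 14222 genes with brightest probes well above background on the same arrays as IL11, those with the nearest 3 scaled log2 signals were ZCCHC8, SGMS2 and SPTY2D1, at distances of 0.53, 0.65 and 0.70. ZCCHC8 was 12.4-fold and 7.66-fold higher under cantharidin and okadaic acid, and SPTY2D1 8.04-fold and 11.4-fold. SGMS2 gave 157 in control, 2144 under cantharidin and 4055 under okadaic acid. The likeness is over 3 arrays only, and probes of different genes need not give equal signal for equal amounts of RNA.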

How the data were processed

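RNA of control, cantharidin and okadaic acid cells was measured on 1 array each. Spot intensity, as the authors deposited it, came from Feature Extraction 11.0.1.1 (probe annotation hg19), with background removed and spatial trends levelled inside an array but no scaling across arrays. Flags mark outlier, saturated and well measured spots. A second deposited file holds normalized log2 values. How it was made is not given in the sources used here, and its columns correlated with their own arrays with r of at least 0.998. It was used as an alternative.

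Log2 intensities of the spots not flagged as outliers were averaged for each probe (34041 of 34127 probes) and each array's 75th percentile was subtracted (intensities of 784, 713 and 936 for control, cantharidin and okadaic acid). Accessions without version were matched to RefSeq genes of GRCh38.p14, which named 25705 probes. The builds differ, so no gene coordinates of the arrays are given. A gene was its probe with the highest mean signal, compared if either array measured it above background, and called at 1.5-fold. Where 1 side was below background, the fold is a bound, taken against the dim signal or the dimmest measured signal of that array, whichever was brighter. Such a bound holds for the processed intensities only, and the normexp correction gave smaller changes for some probes. Counts use the measured difference, also where the fold is a bound. The members and lists were chosen with earlier results of these data known. Named list genes were those past 1.5-fold under both agents, at most 6 a list by the smaller change, and those with opposite calls; genes given by direction only were named after their values were seen. There were 12 alternative settings, 1 of them (outlier spots kept) added after seeing these values; the closing section gives their effect. The calling step was tested on simulated data. R 4.3.3 with limma 3.58.1 (normexp, offset 50) and Python 3.11.15 with numpy 2.4.6 and pandas 2.3.3 were used. Some list genes counted are not reported here by name. The number of arrays limits the precision.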

Additional observations from a re-analysis of the deposited data

Results flagged for a closer look

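LIF and SOCS3 were singled out because their brightest probes moved in opposite directions under the agents, each by more than the scanner error. LIF was at -0.58 under cantharidin and 0.61 under okadaic acid on the log2 scale, and SOCS3 was at -0.58 and 2.03. The other, dim LIF probe was at -0.73 and -0.30, so opposite directions for LIF rest on 1 probe. On the brightest probes both cantharidin values lie within 1.5-fold, and with 1 array per group the difference between the agents was not tested.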

How the results depend on the processing

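The counts of members at least 1.5-fold higher were within 1.5 times of the values above in each comparison and alternative. The genes behind a count could change. With the median over probes under okadaic acid, LIF left the higher members, at 0.16, and IL6ST joined them, at 1.25. The count of members lower than control under cantharidin, 0 as reported, was 2 without scaling, 1 with the normexp correction and 1 when each gene was the median of its probes. Under okadaic acid it was 1 with the median over probes in place of 0. The count lower under okadaic acid than under cantharidin, 1 as reported, was 2 with median scaling and with the median over probes, and 0 without scaling, with normexp, with probes well above background on all 3 arrays, at the 2-fold threshold and with dim signals at the array floor. In the last setting the log2 difference of IL6R turned from -0.66 to 0.24, by construction, since the okadaic acid floor is higher. Past 1.5-fold under cantharidin, the other family genes numbered 8, and 5 when well above background on all 3 arrays or at 2-fold. At 2-fold under okadaic acid, the signalling list went from 10 to 5, the STAT3-induced list from 9 to 5 and the list of factors acting on IL6 from 10 to 6, by construction. With the median over its probes, IL6ST differed from control by 1.12 with cantharidin and by 1.25 with okadaic acid on the log2 scale, and STAT3 with okadaic acid by -1.11. Across alternatives, 152 list and member counts stayed within 1.5 times of those reported and 16 did not. Some of the 152 could not have moved, such as a count of 0 at the stricter threshold. No paired analysis was possible because each group had 1 array. Dim signals limit IL6, IL6R, LIFR, the acute phase genes and other list genes such as IL31, IL27, CNTF and JAK2, and the control value of IL31RA.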

Other observations

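Some genes of the lists differed mainly between the agents and were picked after their values were seen. PIM1, a kinase gene known as a STAT3 target, had intensities of 10764 in control, 1605 under cantharidin and 15525 under okadaic acid, which was 6.10-fold lower and 1.21-fold higher than control after scaling. ICAM1, an adhesion molecule, had 4150, 4072 and 17478, which was 1.08-fold and 3.53-fold higher. CNTFR, the receptor chain used by CLCF1, had 75.4, 69.0 and 201, with 1.01-fold and 2.24-fold. The differences between the agents were not tested.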
